A study of Mus musculus with 6 samples.

Results

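Glucose production and periportal amino acid breakdown in the liver were followed through 10 genes in breast cancer metastases of the mouse liver whose tumour cells carried a hairpin against Zdhhc17 or a scrambled one: G6pc, Pck1, Fbp1, Slc37a4, Ppargc1a, Tat, Sds, Gls2, Hal and Igfbp1. The genes were taken by symbol from the deposited count table, where they are 10 of 24167 genes, and all 10 passed the filter on low counts. The metastases grew in female BALB/c mice 6 to 8 weeks old that received 500000 cells of 4T1, a triple-negative mammary carcinoma line, by hydrodynamic tail vein injection. In the shSCR group (3 libraries) the cells carried a scrambled hairpin, and in the shZdhhc17 group (3 libraries) a hairpin against the palmitoyltransferase Zdhhc17, both from a lentiviral pLKO.1 vector with puromycin selection. Lesions were dissected from the liver under a microscope on day 10 and polyadenylated RNA was sequenced. Only the cancer cells carried a hairpin; liver and immune cells of the host, including the hepatocytes in which these genes are mainly active, did not. Nothing in the labels ties each library to a single animal outright, and the p-values given here cover sample-to-sample spread, which may be technical.

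Hepatocytes release glucose during fasting by running glycolysis in reverse from lactate, glycerol and amino acids. Glucagon, acting through cAMP, and glucocorticoids switch on the rate-limiting genes, while insulin switches them off by removing FOXO transcription factors from the nucleus. The work is divided along the liver lobule: hepatocytes around the portal vein make glucose and break down amino acids such as serine, glutamine and histidine, and those around the central vein carry out glutamine synthesis and much of drug metabolism. Pck1 encodes the cytosolic phosphoenolpyruvate carboxykinase that starts the path, Fbp1 the fructose bisphosphatase in its middle, and G6pc the catalytic subunit of the glucose phosphatase at its end, which receives its substrate through the transporter encoded by Slc37a4. Ppargc1a encodes a coactivator of the fasting response. Tat, Sds, Gls2 and Hal encode enzymes that break down tyrosine, serine, glutamine and histidine, and Igfbp1 encodes a secreted binding protein for insulin-like growth factors that insulin represses.

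The sequences before the start sites of G6pc, Igfbp1 and Pck1 are shown because G6pc and Igfbp1 are the members whose groups did not overlap, in opposite directions, while Pck1 is the textbook gene of the same hormonal control and its groups overlapped. RefSeq promoters (build GRCm38.p6, another build than that of the counts) matched 8 of the 10 members. Each line gives the 250 bases before the start site, 5′ to 3′ on the gene's own strand, with capitals for matches to the motifs named next.
G6pc (chr11:101367466-101367715, + strand): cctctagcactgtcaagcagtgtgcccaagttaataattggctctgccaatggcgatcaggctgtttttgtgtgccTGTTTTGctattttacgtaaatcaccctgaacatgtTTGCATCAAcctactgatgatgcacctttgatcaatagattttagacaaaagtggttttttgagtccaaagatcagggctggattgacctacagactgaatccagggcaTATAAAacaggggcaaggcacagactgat
Igfbp1 (chr11:7197537-7197786, + strand): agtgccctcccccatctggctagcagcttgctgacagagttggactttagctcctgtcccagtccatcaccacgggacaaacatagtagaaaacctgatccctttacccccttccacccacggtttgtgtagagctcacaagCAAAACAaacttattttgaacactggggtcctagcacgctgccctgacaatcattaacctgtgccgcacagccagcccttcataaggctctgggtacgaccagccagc
Pck1 (chr2:173152823-173153072, + strand): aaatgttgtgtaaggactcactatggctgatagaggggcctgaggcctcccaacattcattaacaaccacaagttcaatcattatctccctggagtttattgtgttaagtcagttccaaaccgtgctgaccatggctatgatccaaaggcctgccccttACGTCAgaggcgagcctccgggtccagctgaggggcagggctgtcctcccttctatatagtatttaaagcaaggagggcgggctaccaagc

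Both strands were searched for 8 motifs. The FOXO insulin response core TGTTTTG lay at -174 to -168 in G6pc and, on the opposite strand as CAAAACA, at -108 to -102 in Igfbp1; 5.56% of 32851 promoters of the same length hold it. The cAMP response element core ACGTCA lay at -91 to -86 in Pck1, and 6.47% of promoters hold it. G6pc also held the C/EBP element TTGCNNCAA at -138 to -130 (1.74% of promoters) and the TATA box TATAAA at -29 to -24 (12.4%). These 3 windows held no match to the full cAMP response element TGACGTCA (1.55% of promoters; it contains the core), the forkhead element TGTTTAC (3.17%), the glucocorticoid receptor motif AGAACA (16.1%) or the hypoxia response core ACGTG (16.6%, sharing letters with the cAMP response elements). Matches are letters in a window, not measured binding.

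Total counts ran from 15832837 to 19186615 per library. Zdhhc17 itself stood at 33.4 ± 0.902 CPM (a gene's count scaled to its library's total after TMM normalization) in shSCR and 26.5 ± 1.07 in shZdhhc17 (SD, n = 3 each), with groups that did not overlap and an edgeR estimate of -0.33 ± 0.11 (SE) on the log2 scale (adjusted p = 0.383). Hepatocyte RNA differed in amount between libraries: the 15 hepatocyte markers took 6.15%, 5.46% and 3.31% of counts in shSCR replicates 1, 2 and 3 and 5.97%, 7.51% and 7.08% in shZdhhc17 replicates 1, 2 and 3. Their mean log2(CPM + 1) was 10.7 ± 0.613 in shSCR and 11.2 ± 0.319 in shZdhhc17 (SD, n = 3 each), a difference of 0.53 (exact two-sided permutation test, p = 0.2, where 3 against 3 cannot go below 0.1); it was 0.19 without shSCR replicate 3, the library lowest in these markers. In bulk tissue, fewer hepatocytes and less RNA per hepatocyte cannot be told apart. Of the markers of kidney and gut, the other organs that make glucose, Slc5a2, Aqp2 and Vil1 lay between 0 and 0.566 CPM in every library. Fabp2, which those organs share with other tissue, stood at 18.9 ± 8.13 CPM in shSCR and 39.2 ± 6.66 in shZdhhc17 (SD, n = 3 each).

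G6pc, the last enzyme of glucose release, was lower in every shZdhhc17 library than in every shSCR library, while Pck1, Fbp1 and Slc37a4, the other enzymes and the transporter of the same path, had higher means in shZdhhc17. No member passed edgeR's quasi-likelihood test with Benjamini-Hochberg adjustment over 15567 genes at an adjusted p under 0.05, and neither did any other gene (percent called: 0). Unadjusted p-values under 0.05 were found for 2 members in either direction (11.4% of all genes), 1 on the lower side (G6pc; 6.71% of all genes) and 1 on the higher side (Igfbp1; 4.72% of all genes). Groups did not overlap for the same members, G6pc lower (9.62% of all genes) and Igfbp1 higher (7.48% of all genes), so the count of members apart was near that of genes in general. The median log2 fold change of the 10 members was 0.32, against 0.0017 over all genes tested; relative to the hepatocyte markers of each library, described further on, the members' median was -0.20.

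G6pc (ENSMUSG00000078650.3) stood at 294, 115 and 124 CPM in shSCR replicates 1, 2 and 3. In shZdhhc17 replicates 1, 2 and 3 it stood at 52.3, 66.9 and 92.7 CPM. The highest silenced library thus lay below the lowest control, and shSCR replicate 1 stood apart from the other controls. Means were 178 ± 101 CPM in shSCR and 70.6 ± 20.5 in shZdhhc17 (SD, n = 3 each), 2.51-fold lower. Fitted by edgeR, this was -1.33 ± 0.40 (SE) on the log2 scale, with an adjusted p of 0.350. It was -0.76 without shSCR replicate 1 (edgeR adjusted p = 0.218), so the high control carried much of its size but not its direction. DESeq2 called G6pc (log2 fold change -1.32 ± 0.38, SE; adjusted p = 0.0472; percent called lower: 0.619), as did the authors' deposited table with a q of 0.0459. That table gives the same DESeq2 log2 fold change and unadjusted p for G6pc, so it repeats this fit and adds no second one. With DESeq2 the call was lost without shSCR replicate 1 (adjusted p = 0.121) and without shZdhhc17 replicate 1, 2 or 3 (adjusted p = 0.156, 0.356 and 0.143), and held without shSCR replicate 2 or 3 (adjusted p = 0.0434 and 0.0267).

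Pck1 (ENSMUSG00000027513.12), at the entry of the path, stood at 827, 988 and 398 CPM in the shSCR replicates and 668, 1660 and 831 in the shZdhhc17 replicates. Its groups overlapped, with shSCR replicate 3 lowest and shZdhhc17 replicate 2 highest. Its log2 fold change was 0.51 ± 0.44 (SE), with an edgeR adjusted p of 0.666. It was 0.024 without shZdhhc17 replicate 2, 0.21 without shSCR replicate 3 and 0.78 without shSCR replicate 2. Fbp1 (ENSMUSG00000069805.11) stood at 539, 382 and 220 CPM in shSCR and 393, 789 and 782 in shZdhhc17. Its shZdhhc17 replicate 1 lay among the controls and the other silenced libraries above all of them. Its log2 fold change was 0.78 ± 0.39 (SE), with an edgeR adjusted p of 0.485; it was 0.50 without shSCR replicate 3.

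Slc37a4 (ENSMUSG00000032114.10), which carries the phosphorylated sugar to the phosphatase in the endoplasmic reticulum, stood at 82.0, 57.8 and 45.8 CPM in shSCR and 69.8, 96.4 and 82.6 in shZdhhc17. Groups overlapped, at a log2 fold change of 0.42 ± 0.23 (SE) and an edgeR adjusted p of 0.510; this was 0.24 without shSCR replicate 3 and 0.68 without shSCR replicate 1. The phosphatase and its transporter therefore stood in different proportion in the groups. Counts of G6pc per count of Slc37a4, a ratio that needs no scaling between libraries, were 3.58, 1.98 and 2.72 in the shSCR replicates and 0.749, 0.694 and 1.12 in the shZdhhc17 replicates. Counts of G6pc per count of Fbp1 were 0.544, 0.300 and 0.565 in shSCR and 0.133, 0.0848 and 0.118 in shZdhhc17. Per count of Pck1, G6pc was at 0.355, 0.116 and 0.313 in shSCR and 0.0782, 0.0403 and 0.112 in shZdhhc17, apart by a thin margin. None of these ratios overlapped between the groups; they were chosen after the values were seen and are given without a test. The ratio of Fbp1 to Pck1 overlapped, at 0.531 ± 0.134 in shSCR and 0.668 ± 0.243 in shZdhhc17 (SD, n = 3 each).

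**Figure D1:**
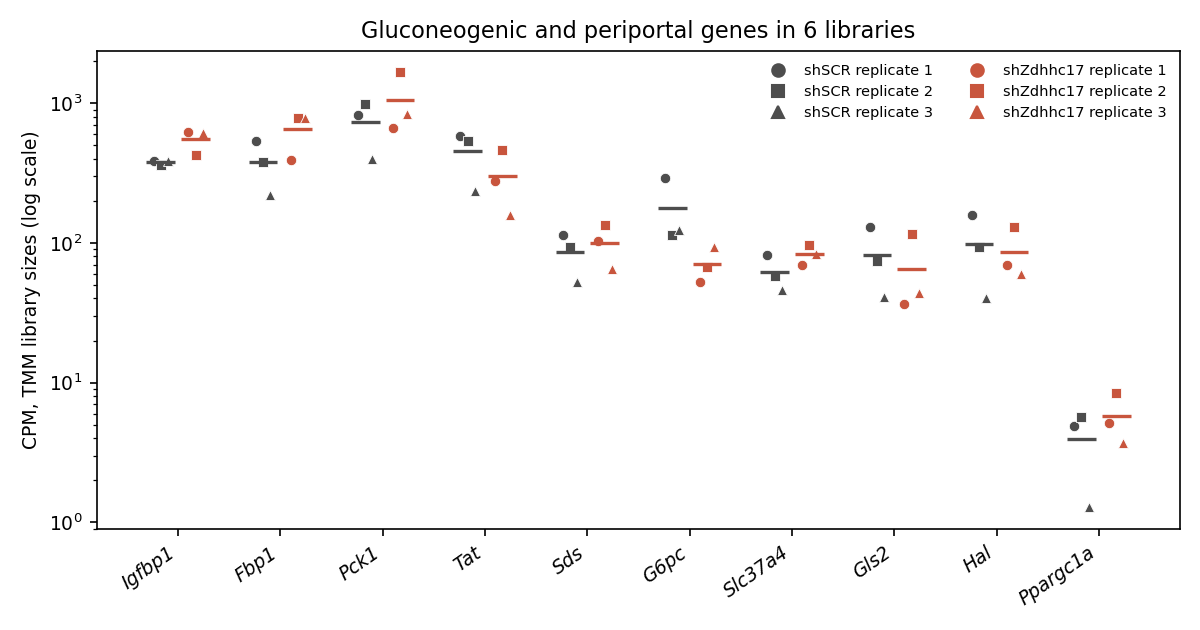
CPM of the 10 genes (log axis) in each library, ordered from left by mean CPM per kilobase of exon; points are libraries, shapes are replicate numbers and horizontal lines are group means. The 3 shZdhhc17 points of G6pc, 52.3 to 92.7, lie below all shSCR points, those of Igfbp1, 429 to 624, lie above, and the other genes overlap.

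Ppargc1a (ENSMUSG00000029167.14) was a low transcript, at 4.91, 5.65 and 1.28 CPM in the shSCR replicates and 5.09, 8.42 and 3.69 in the shZdhhc17 replicates. Its groups overlapped (log2 fold change 0.54 ± 0.54, SE; edgeR adjusted p = 0.718), and the value was 0.12 and 0.89 with shSCR replicate 3 or 2 left out, and 0.15 with shZdhhc17 replicate 2 left out. Igfbp1 (ENSMUSG00000020429.8) stood at 389, 363 and 386 CPM in shSCR and 624, 429 and 608 in shZdhhc17. Controls were close together and each silenced library lay above them. Means were 379 ± 14.1 and 554 ± 108 CPM (SD, n = 3 each), with a log2 fold change of 0.55 ± 0.20 (SE) and an edgeR adjusted p of 0.394, from 0.46 to 0.70 with 1 library left out. Neither DESeq2 (adjusted p = 0.154) nor the authors' deposited table, which repeats that fit (q = 0.150), called it; without shZdhhc17 replicate 2, DESeq2 did (log2 fold change 0.72; adjusted p = 0.00638).

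All 4 amino acid enzymes, Tat, Sds, Gls2 and Hal, overlapped between the groups in CPM. Tat (ENSMUSG00000001670.14), which starts tyrosine breakdown and is a classic glucocorticoid target, stood at 584, 538 and 234 CPM in shSCR and 276, 463 and 159 in shZdhhc17 (log2 fold change -0.59 ± 0.46, SE; edgeR adjusted p = 0.631). Without shZdhhc17 replicate 3, the lowest library, the log2 fold change was -0.29, and without shZdhhc17 replicate 2 it was -1.05. Sds (ENSMUSG00000029597.15), which turns serine into pyruvate, stood at 113, 92.8 and 52.7 CPM in shSCR and 103, 133 and 65.1 in shZdhhc17 (log2 fold change 0.22 ± 0.34, SE; edgeR adjusted p = 0.822). In both groups the library called replicate 3 was lowest for Tat and Sds.

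Gls2 (ENSMUSG00000044005.14), the liver glutaminase, stood at 129, 74.6 and 41.3 CPM in shSCR and 36.3, 116 and 43.5 in shZdhhc17 (log2 fold change -0.32 ± 0.53, SE; edgeR adjusted p = 0.833). Hal (ENSMUSG00000020017.15), which removes ammonia from histidine, stood at 159, 93.8 and 40.4 CPM in shSCR and 69.1, 131 and 59.9 in shZdhhc17 (log2 fold change -0.17 ± 0.49, SE; edgeR adjusted p = 0.905). Gls2 and Hal spread widely within a group: the highest shSCR library held 3.12 times the Gls2 and 3.94 times the Hal of the lowest. Both changed sign without shSCR replicate 1, to 0.17 for Gls2 and 0.37 for Hal.

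Per kilobase of exon (Gencode vM21 exon unions), and over all 6 libraries, Igfbp1 was the most abundant at 306 ± 77.2 CPM per kilobase (SD, n = 6), followed by Fbp1 at 304 ± 136, Pck1 at 261 ± 124 and Tat at 156 ± 73.0. Sds stood at 55.1 ± 17.8, G6pc at 51.4 ± 36.2, Slc37a4 at 25.3 ± 6.46, Gls2 at 21.1 ± 11.6 and Hal at 16.6 ± 8.16 CPM per kilobase. Ppargc1a was far below at 0.734 ± 0.356. Ranges over libraries overlapped between each pair of neighbours in this order except Hal (7.28 to 28.7) and Ppargc1a (0.195 to 1.28). These ranges do not settle the order above Ppargc1a. They pool the libraries and cannot show whether an order held within each of them. The place of G6pc pools unlike groups: it stood at 73.6 ± 41.7 CPM per kilobase in shSCR, beside 51.0 ± 18.2 for Sds, and at 29.3 ± 8.48 in shZdhhc17, beside 29.0 ± 4.65 for Slc37a4 (SD, n = 3 each).

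**Figure D2:**
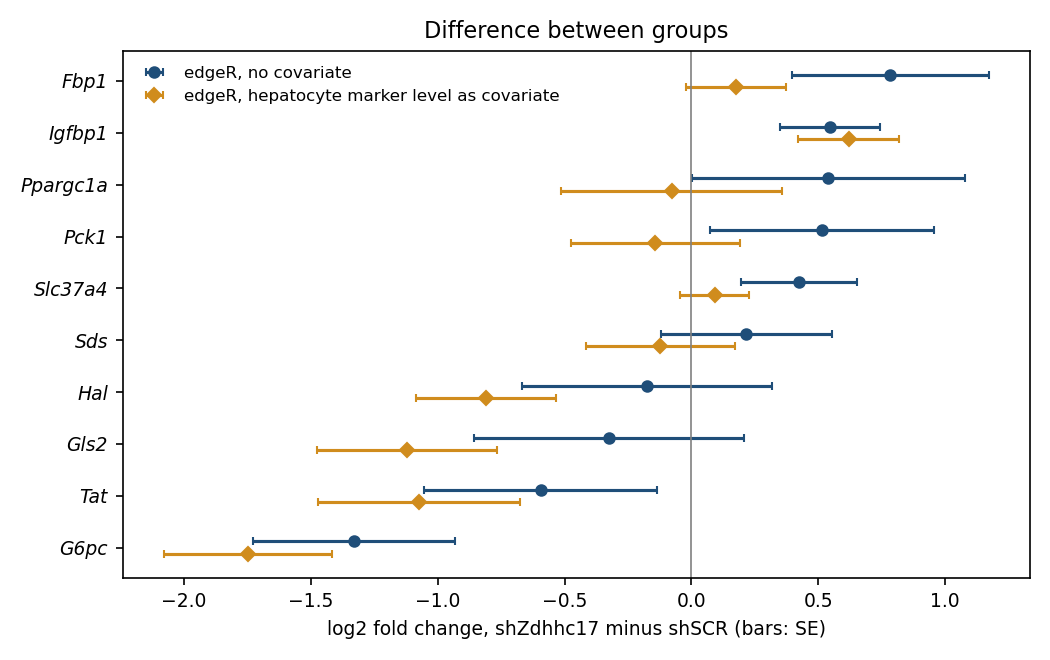
Log2 fold change of each gene, shZdhhc17 minus shSCR, with its standard error, from edgeR without a covariate (circles) and with the hepatocyte marker level of each library as a covariate (diamonds). G6pc lies furthest to the left in both fits, at -1.33 and -1.75, and Fbp1, Slc37a4, Pck1, Ppargc1a and Sds lie between -0.14 and 0.18 with the covariate.

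Because the libraries differed in hepatocyte RNA, the members were also set against the hepatocyte markers. Within a library, log2(CPM + 1) of G6pc minus the marker mean was -2.98, -3.97 and -3.02 in the shSCR replicates and -5.11, -5.37 and -4.75 in the shZdhhc17 replicates. On this scale the difference in means was -1.75, or 3.37-fold. The marker mean was 0.53 higher in shZdhhc17, and subtracting it moves every gene down by that much. Tat relative to the markers stood at -1.95 ± 0.187 in shSCR and -3.10 ± 0.760 in shZdhhc17 (SD, n = 3 each), a difference of -1.15, and Gls2 at -4.45 ± 0.243 and -5.35 ± 0.662, a difference of -0.90. These 3 members did not overlap and were lower (8.81% of all genes), and 0 were higher (0.617%). The markers also scattered around their own mean: of the 15, 3 were lower and 2 higher without overlap, with differences from -0.65 to 0.65. Gls2 rested on a thin margin: its lowest shSCR value was -4.589 and its highest shZdhhc17 value -4.590, and it overlapped with a pseudocount of 0.25 or with library totals as the scale. With periportal and pericentral genes as the reference in place of the markers, Gls2 differed by -0.66 and Fbp1 by 0.51 (exact two-sided permutation p = 0.3 and 0.1). In exact two-sided permutation tests the 3 members had p = 0.1, the smallest this design allows (0.333 adjusted over the 10 members by Benjamini-Hochberg).

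The remaining 7 members overlapped on the relative scale. Hal differed by -0.59 and Sds by -0.31, Fbp1 by 0.27, and Pck1, Slc37a4, Ppargc1a and Igfbp1 by -0.033, -0.088, -0.0037 and -0.0077. Igfbp1, apart on the CPM scale, was thus mixed here, at -2.58, -2.31 and -1.40 in shSCR and -1.56, -2.71 and -2.05 in shZdhhc17. A gene of equal CPM in both groups falls near -0.53 on this scale, since the marker mean was 0.53 higher in shZdhhc17. The relative values of all members, G6pc and Tat included, and those of the gene lists below, are to be read against that. With the marker level as a covariate in edgeR, log2 fold changes were -1.75 ± 0.33 for G6pc (SE; edgeR adjusted p = 0.287), -1.12 ± 0.35 for Gls2, -1.07 ± 0.40 for Tat and -0.81 ± 0.28 for Hal, each with an unadjusted p under 0.05 (4 members; 4.93% of all genes). Igfbp1, at 0.62 ± 0.20, was the 1 member with such a p on the higher side (4.24% of all genes). None of these 5 passed after adjustment.

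**Figure D3:**
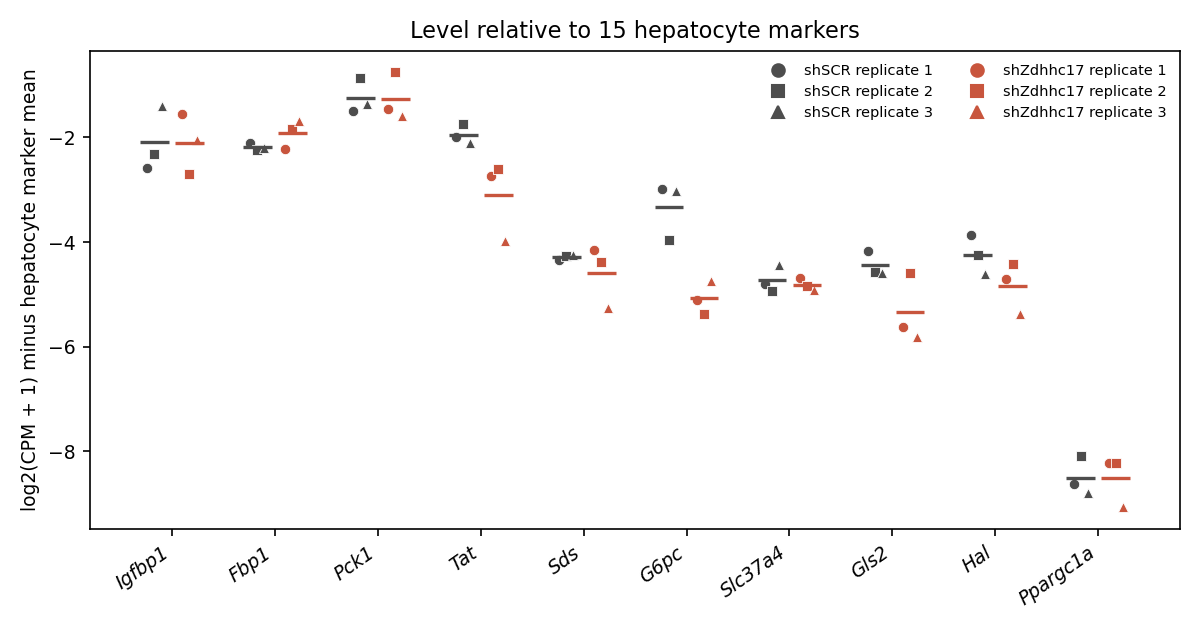
Log2(CPM + 1) of each gene minus the mean of 15 hepatocyte markers in the same library; points are libraries, shapes are replicate numbers and horizontal lines are group means. G6pc is lower in each shZdhhc17 library (-5.37 to -4.75) than in each shSCR library (-3.97 to -2.98), as is Tat, while Pck1 and Slc37a4 lie at like heights in both groups.

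Members differed in how closely they followed the hepatocyte markers across the 6 libraries. Fbp1 (Pearson r = 0.970, exact permutation p = 0.00139, adjusted 0.00694; Spearman rho = 1, exact permutation p = 0.00278, adjusted 0.0139) and Slc37a4 (r = 0.963 and rho = 1, with the same exact permutation p-values) followed them, and still did without the 2 libraries farthest from the median marker level, shSCR replicate 3 and shZdhhc17 replicate 2 (r = 0.961 and 0.893 over 4 libraries). G6pc did not (r = -0.0791, exact permutation p = 0.858; rho = -0.371, p = 0.497; r = 0.456 without those 2). Tat (r = 0.248, exact permutation p = 0.679; rho = 0.0286, p = 1; r = -0.397 without them) and Igfbp1 (r = 0.296, exact permutation p = 0.619; rho = 0.543, p = 0.297; r = 0.191 without them) did not either. Values of Pck1 (r = 0.857, adjusted exact permutation p = 0.134; rho = 0.657) and Ppargc1a (r = 0.829, adjusted exact permutation p = 0.167; rho = 0.429) rested on those 2 libraries, with r = 0.0380 and -0.853 without them. Sds, Gls2 and Hal had r from 0.546 to 0.718 and rho from 0.486 to 0.657, none of which passed over the 10 relations. Their r values also rested on those 2 libraries, with -0.469 for Sds, 0.195 for Gls2 and 0.0682 for Hal without them. Both axes share the library scale, and each group holds too few libraries for a value of its own.

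**Figure D4:**
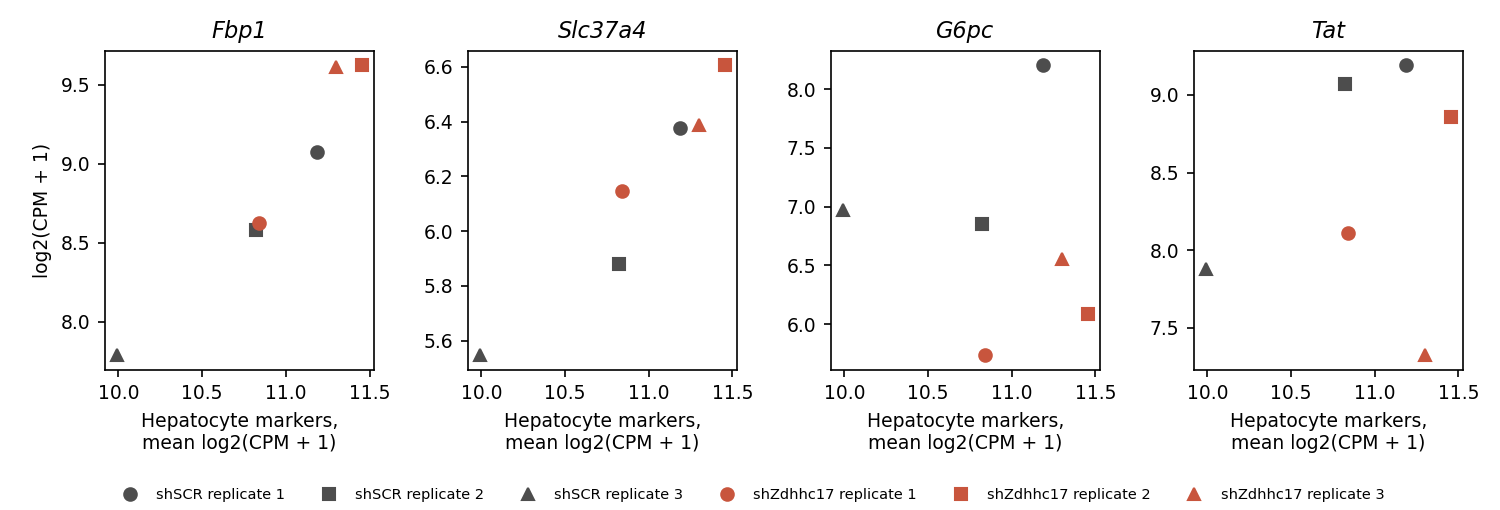
Log2(CPM + 1) of Fbp1, Slc37a4, G6pc and Tat in each library (vertical axis) against the mean log2(CPM + 1) of the hepatocyte markers (horizontal axis); colours are groups and shapes are replicate numbers. Fbp1 and Slc37a4 rise along the marker level, and the 3 shZdhhc17 points of G6pc lie below all shSCR points, whether low or high in markers.

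Other genes of glucose production mostly had positive log2 fold changes, unlike G6pc. None of the 15 tested of 16 listed passed edgeR, 10 had a positive log2 fold change, the median was 0.67, and groups did not overlap for 6, all higher (7.48% of all genes). Among the most highly expressed were Pcx, the pyruvate carboxylase that feeds the path (1.03 ± 0.36, SE), and Mdh1, a malate dehydrogenase (-0.088 ± 0.25). Slc2a2 encodes the transporter by which hepatocytes exchange glucose with blood. It stood at 88.7, 56.5 and 42.5 CPM in shSCR and 92.3, 191 and 155 in shZdhhc17 (1.22 ± 0.34, SE; edgeR adjusted p = 0.323). Gpt2, an alanine transaminase, had 0.92 ± 0.23 and Tkfc, of fructose metabolism, 1.05 ± 0.28; DESeq2 called these and Slc2a2 (adjusted p = 0.0367, 0.0342 and 0.0348; percent called higher: 0.555), and all 3 are named after their values were seen. Relative to the hepatocyte markers, the list's median difference was 0.13. On that scale Slc2a2, Pcx and Gpd1 were higher and did not overlap (0.617% of all genes). Gpd1, an enzyme of glycerol use, is also named after its values were seen.

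Hormone receptors and regulators (19 tested) had a median log2 fold change of 0.19, with 13 positive and none past edgeR. The median was -0.021 without shZdhhc17 replicate 2, and -0.36 relative to the hepatocyte markers. The most highly expressed were the hepatocyte factor gene Hnf4a (0.64 ± 0.31, SE), the insulin receptor gene Insr (0.19 ± 0.22) and Cebpa (0.55 ± 0.36). Crtc2, a coactivator of the cAMP response, was the 1 gene of that list with groups apart, and lower (-0.39 ± 0.16, SE; edgeR adjusted p = 0.414; 9.62% of all genes); it is named after its values were seen. The 10 glucocorticoid and fasting targets had a median of 0.24, with 7 positive and none past edgeR. Fkbp5, a glucocorticoid-induced chaperone gene, stood at 97.4 ± 7.60 CPM in shSCR and 179 ± 72.3 in shZdhhc17 (SD, n = 3 each), with groups that did not overlap (0.87 ± 0.27, SE; edgeR adjusted p = 0.352; 7.48% of all genes on the higher side). Its shZdhhc17 replicates 1, 2 and 3 stood at 262, 136 and 137 CPM, and its highest shSCR library at 106. Trib1 had 0.19 ± 0.14 and Tsc22d3, another glucocorticoid target, -0.092 ± 0.17. Relative to the hepatocyte markers the list's median was -0.29. There Tsc22d3 (-0.61) and Dusp1 (-1.03), a stress phosphatase gene named after its values were seen, were lower without overlap (8.81% of all genes), and Fkbp5 overlapped. In CPM, Tsc22d3 and Dusp1 (-0.49 ± 0.25, SE) overlapped between the groups.

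The 24 other amino acid breakdown genes had a median log2 fold change of 0.21; 21 were positive, none passed edgeR, and 0 had groups that did not overlap. This median turned to -0.097 without shSCR replicate 3 and -0.048 without shZdhhc17 replicate 2, and was -0.39 with the marker level as a covariate, where 10 of 24 were lower at an unadjusted p under 0.05 (4.93% of all genes). Glud1, the glutamate dehydrogenase that follows Gls2, had 0.55 ± 0.27 (SE), Hpd of tyrosine breakdown after Tat 0.091 ± 0.47, and Tdo2 of tryptophan breakdown 0.50 ± 0.61. Relative to the hepatocyte markers their median difference was -0.31, and 7 of 24 were lower without overlap (8.81% of all genes). Of the 15 markers themselves, 3 were lower and 2 higher without overlap. Amdhd1 and Ftcd, which act after Hal in histidine breakdown, were among the 7 lower, at -0.53 and -0.20, while Uroc1 of the same path overlapped at -0.32. Without reference to the markers their edgeR log2 fold changes were -0.063 for Amdhd1, 0.31 for Ftcd and 0.14 for Uroc1. Amdhd1, Ftcd and Uroc1 are named after their values were seen.

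Other periportal genes went both ways. Of 16 tested, 10 had a positive log2 fold change, the median was 0.22, and none passed edgeR. The median turned to -0.098 without shZdhhc17 replicate 2, -0.15 with the covariate and -0.29 relative to the hepatocyte markers. Apoa4, of fasting lipoprotein, had the highest value, 1.13 ± 0.38 (SE), followed by Hsd17b6 at 1.01 ± 0.30, and both had groups apart (7.48% of all genes on the higher side). The urea cycle genes Cps1 and Arg1 had 0.23 ± 0.65 and 0.22 ± 0.25. Groups were also apart, and higher, for Hsd17b13, a lipid droplet protein gene, at 226 ± 49.0 CPM in shSCR and 402 ± 7.20 in shZdhhc17 (SD, n = 3 each), and the arginine transporter gene Slc7a2 (0.87 ± 0.23, SE), both called by DESeq2 (adjusted p = 0.0119 and 0.0381; percent called higher: 0.555). The lowest value was that of the cytochrome gene Cyp2f2, at 209, 114 and 37.7 CPM in shSCR and 19.7, 60.0 and 13.9 in shZdhhc17 (-1.94 ± 0.72, SE; edgeR adjusted p = 0.405), whose groups overlapped. Relative to the hepatocyte markers, Cyp2f2 differed by -2.41 and Etnppl, of phosphoethanolamine breakdown, by -1.54, and with Aldh1b1 (-0.47) they were the 3 lower without overlap (8.81% of all genes); Hsd17b6 (0.47) and Apof (0.24) were the 2 higher (0.617%). Hsd17b6, Hsd17b13, Slc7a2, Cyp2f2, Etnppl, Aldh1b1 and Apof are named after their values were seen.

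Pericentral genes, from the other end of the lobule, had a median log2 fold change of 0.49 over 15 tested; 13 were positive and none passed edgeR or had groups apart. Cyp2e1 had 0.68 ± 0.46 (SE), the glutamine synthetase gene Glul 0.95 ± 0.35 and Rgn 0.083 ± 0.53. DESeq2 called Slc13a3, a carboxylate transporter gene (DESeq2 adjusted p = 0.0342, percent called higher: 0.555), which had 1.35 ± 0.39 (SE) by edgeR. This gene is named after its values were seen. Relative to the markers the median difference was -0.029. Cyp1a2 (-0.82) and Cyp27a1 (-0.77) were lower without overlap (8.81% of all genes) and Lect2 (0.39) higher (0.617%), all named after their values were seen. With the covariate, 4 of the 15 were lower at an unadjusted p under 0.05 (4.93% of all genes). A test of the difference between periportal and pericentral genes was not run.

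Across all 6 libraries, the genes whose log2(CPM + 1) was most like the mean of the 10 members, among 10480 genes with a mean of at least 10 CPM, were Ivd, an enzyme of leucine breakdown (Pearson r = 0.996), Bod1l (0.992), Akr1d1 of bile acid synthesis (0.991), Dcxr (0.988) and Gnmt of methionine metabolism (0.987). Each is a description over 6 libraries, and the members are averaged over unlike patterns: G6pc had r = -0.194 with Pck1 and -0.121 with Fbp1, while Gls2 and Hal had 0.915 and Pck1 and Ppargc1a 0.920.

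Markers of other cells were summed in each library. The summed level of 8 neutrophil markers was 105 to 291 CPM in shSCR and 352 to 672 in shZdhhc17, with S100a9 the most highly expressed. The 7 stellate cell and fibroblast markers summed to 3854 to 6888 and 3064 to 3725 CPM, led by Col3a1, the 8 macrophage markers, led by Lyz2, to 1127 to 1284 and 1362 to 1484, and the 7 T cell markers, led by Lck, to 10.8 to 42.8 and 8.93 to 16.8. The most highly expressed genes weigh most in such sums. In mean log2(CPM + 1) the macrophage list and the stellate cell and fibroblast list both overlapped between the groups. Log2 fold changes were positive for 5 and negative for 3 macrophage markers, and positive for 3 and negative for 4 stellate cell and fibroblast markers. The carcinoma (Krt18), endothelial (Stab2), bile duct (Spp1) and mesothelial (Msln) lists overlapped in summed level. Still, 4 of the 6 mesothelial genes had groups apart, all higher in shZdhhc17 (7.48% of all genes). Of the 8 carcinoma markers, 7 had a negative log2 fold change and 1 a positive one, with a median of -0.43. Groups were apart for 1 of them, and lower (9.62% of all genes). An overlap of the sums thus does not show that tumour content was alike. Of the defining markers, Ly6g of neutrophils stood at 0.516 ± 0.429 CPM in shSCR and 1.99 ± 1.01 in shZdhhc17 (SD, n = 3 each). The part of these cells in the values of G6pc and Igfbp1 was not tested. In the authors' deposited table of gene sets, 5 sets name gluconeogenesis, with normalized enrichment scores from -1 to 1.25 and q-values from 0.616 to 0.840.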

How the data were processed

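The authors deposited raw counts per gene, without normalization, for 6 libraries of polyadenylated RNA, and all 6 columns were matched to samples by their labels. Per the submitters' processing notes, which give no roles, the tools were HTSeq, STAR 2.6.1, DESeq2 1.34.0 and FastQC 0.11.8, with build GRCm39. The kit keeps strand, but the setting used in counting was not given in the sources used here, so antisense reads may be included. Deposited tables of the authors also hold DESeq2 log2 fold changes with p-values and q-values, a ranking score (not used), and normalized enrichment scores of gene sets, per the file headers. Their column notes name another contrast, whereas the tables' own entries name shZdhhc17 against shSCR.

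Counts were tested with edgeR 4.0.16 (glmQLFit with robust estimation, glmQLFTest, two-sided, TMM, filterByExpr; 15567 genes left), in R 4.3.3; adjusted p-values are Benjamini-Hochberg over all of them, with a threshold of 0.05. The common dispersion was 0.0552 on 4 residual degrees of freedom. Alternatives used DESeq2 1.42.0, limma 3.58.1 (voom), other scalings and filters, a replicate block, a hepatocyte marker covariate, a pseudocount of 0.25 and each library left out; DESeq2 with each library left out was added after seeing the data. Fits and tests were first tested on simulated data. Levels relative to hepatocytes are log2(CPM + 1) minus the mean of 15 markers. The members and lists were chosen with earlier results of these data known. Genes named are the members, the 3 most highly expressed of each of 6 pathway lists plus any past the threshold, the most highly expressed of each marker list, the 5 most alike genes and Zdhhc17; others are said to be named after their values were seen, and 1 gene that this rule names is not reported here. The listed symbols Slc34a1, Umod and Cdx2 were not matched and are not analysed here. Replicates were not duplicates: in the most alike pair the chi-square statistic was 13.6 times the number of genes.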

Additional observations from a re-analysis of the deposited data

How the results depend on the processing

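By edgeR, 0 genes passed, with 1780 at an unadjusted p under 0.05, 2 of them members and 21 on the pathway lists. Without the filter on low counts 3 genes passed, none of them a member. DESeq2 called 201 genes, 1 member (G6pc) and 6 pathway genes, and limma voom called 0, with 1682 at an unadjusted p under 0.05. With 1 library left out, edgeR called 0 to 1 genes, 0 members and 0 pathway genes; the single gene was called without shSCR replicate 3. The count at an unadjusted p then ran from 950 to 2885. With library totals alone as the scale, the median log2 fold change of all genes moved to -0.13, where G6pc had -1.43 and Igfbp1 0.42, and 397 genes were higher and 1544 lower at an unadjusted p under 0.05 (735 and 1045 with TMM).

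G6pc, Tat, Fbp1, Slc37a4 and Igfbp1 kept their direction under 14 other settings; G6pc ran from -1.75 to -0.76. Signs turned with the hepatocyte covariate for Pck1 (-0.14), Ppargc1a (-0.077) and Sds (-0.12). With 1 library left out in edgeR, Gls2 reached 0.17 and Hal 0.37 without shSCR replicate 1, Sds -0.042 without shSCR replicate 3 and also -0.042 without shZdhhc17 replicate 2, and Hal 0.035 without shZdhhc17 replicate 3; the other ends of these ranges were -1.03 for Gls2 and -0.60 for Hal without shZdhhc17 replicate 2, and 0.46 for Sds without shSCR replicate 1. DESeq2 turned the same signs in the same omissions: 0.19 for Gls2, 0.38 for Hal, -0.044 and -0.030 for Sds, and 0.046 for Hal. The cause of each was not tested. The count of members apart on the relative scale was 3, and 3 to 5 with 1 library left out (5 without shZdhhc17 replicate 1). Fewer libraries leave fewer values to overlap, so the counts with 1 left out cannot show that the 3 are firm. With all libraries, the count was 2 with a pseudocount of 0.25 and 2 with library totals as the scale. It was 3 with periportal and pericentral genes as the reference, but these were not the same members. With that reference G6pc and Tat were lower, Fbp1 was higher, and Gls2 overlapped. The hepatocyte marker difference stayed positive, from 0.19 to 0.80.

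Replicate numbers carry no stated pairing, and not every library correlated best with its own number: the correlations of their deviations from the group means over genes were -0.059, 0.315 and -0.046. With the replicate number as a block, edgeR called 0 genes, 0 members and 0 pathway genes, with 1623 genes and 3 members at an unadjusted p under 0.05. G6pc then had -1.21 (adjusted p = 0.472). Counting noise was small beside the spread between libraries for the 9 members above 10 CPM; Ppargc1a rested on 23 to 141 counts per library.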
